A study of Mus musculus with 12 samples.

Results

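The effect of an antibody against CSF1 was described over all 12 bulk RNA libraries of a mouse prostate tumour study, 6 libraries with the antibody against 6 without it, with Lupron as a second factor. All 12 libraries of the series enter the comparison, and the genes described are those outside a list of 64 usual macrophage markers (Csf1r, Adgre1, Cd68, Mrc1 and others), of which 60 were tested. The 6 libraries with antibody came from 3 tumours given anti-CSF1 alone and 3 given Lupron with anti-CSF1, and the 6 without it from 3 tumours given control IgG and 3 given Lupron. In every group, 100000 PTE-82 cells, a prostate cancer line labelled as TMPRSS2-ERG positive, had been injected into the prostate of immunocompetent C57BL/6J mice. Mice of the Lupron groups received 0.6 mg on day 4, the antibody was injected on days 9 and 14, and the whole tumour was frozen on day 17 after perfusion. Whether the Lupron mice also received control IgG, and how old the mice were, was not stated in the labels. Each library is 1 tumour of 1 injected line, and the p-values measure the spread between these tumours.

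CSF1 is a growth factor on which most tissue macrophages depend, and it acts through the receptor tyrosine kinase encoded by Csf1r. Antibodies that bind CSF1 are used to deplete macrophages. Lupron is leuprolide, a peptide that, given continuously, shuts down the pituitary signal for testosterone production. RNA from a whole tumour cannot tell fewer cells of a type from less RNA per cell, and this holds for every level below.

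Total counts per library lay between 20584363 and 29965355. Levels are given as CPM, read counts per unit of scaled library size, differences are log2 fold changes with minus without antibody ± standard error, and a gene was called at an adjusted p under 0.05 in edgeR's quasi-likelihood test over 15082 tested genes. The standard error is the absolute log2 difference divided by the square root of that test's F statistic. The summed level of the usual macrophage markers lay between 1972 and 2903 CPM in the 6 libraries with antibody, against 5139 to 6620 CPM in 5 libraries without it and 2068 CPM in the sixth, IgG replicate 3. That library stood apart in other ways too. Its summed level of 30 cell cycle genes was 286 CPM, where the other 11 libraries had 2135 to 4361 CPM, and its smooth muscle genes summed to 16563 CPM, where the others had 526 to 3780 CPM. The main counts are therefore also given without IgG replicate 3, and from a fit to the 6 Lupron libraries, which holds no IgG library. Csf1r itself averaged 20.4 ± 6.35 CPM with antibody, against 106 ± 36.0 CPM without it (SD, n = 6 each), a log2 difference of -2.38 ± 0.31 (adjusted p = 0.00798). The ligand genes gave no call: Csf1 differed by -0.23 ± 0.33 (adjusted p = 0.702) and Il34, the other ligand of the receptor, by -0.04 ± 0.58 (adjusted p = 0.979).

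A total of 282 genes were called, 1.87% of those tested, and the calls were almost all in 1 direction: 270 genes were lower with the antibody (1.79% of those tested) and 12 were higher (0.0796%). Of the 60 tested macrophage markers, 33 were called lower and none higher. Outside them, 249 genes were called, 237 lower and 12 higher. The 237 lower genes had a median log2 difference of -1.92 and ran from -5.07 to -0.64, beside a median of 0.02 over all tested genes. In 151 of the 237, all 6 libraries with antibody lay below all 6 without it, a pattern that 1.69% of all tested genes had. In 8 of the 12 higher genes all 6 lay above, a pattern in 0.703% of all tested genes. The estimate was negative both with and without Lupron in 236 of the 237, and positive in both in 12 of the 12. The genes were called on the average of these estimates, so the signs are not an independent test. Without IgG replicate 3, 236 of the 237 lower and 10 of the 12 higher genes were still called. That fit called more genes: 476 in all and 434 outside the markers, 400 of them lower and 34 higher.

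The number of calls depended on which tumours entered. Leaving out 1 library at a time gave 50 (without anti-CSF1 replicate 3) to 1532 genes (without IgG replicate 1) called outside the markers. All 249 kept the sign of their estimate in each of the 12 fits. They were chosen by a fit to the same libraries, so the kept sign is not an independent test. Of the 249, 45 were called in all 12 fits, 44 of them lower and 1, Il33, higher, and 120 were called in 4 or fewer. The 20 lower genes with the smallest p are among the 44. Genes counted without regard to strand cannot be told from a partner on the other strand, and the labels do not state the strand setting. Of 98 named called genes, 11 share exon bases with another tested gene on the opposite strand: Cd180, Ciita, Coro7, Csf1r, Cxcl16, H2-DMa, Hvcn1, Il16, Irf5, Ncf1 and P2ry12.

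Of these 249 genes, 95 were on one of the other 50 gene lists examined and 154 on none. The largest shares of called members among these lists, drawn in the bar plot of list members, were in the oxidative burst (5 of 7), MHC class II (7 of 11), Toll-like and NOD-like receptors (13 of 24), inhibitory and paired receptors (13 of 25) and cytoplasmic kinases and adaptors of myeloid receptors (12 of 26).

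**Figure D1:**
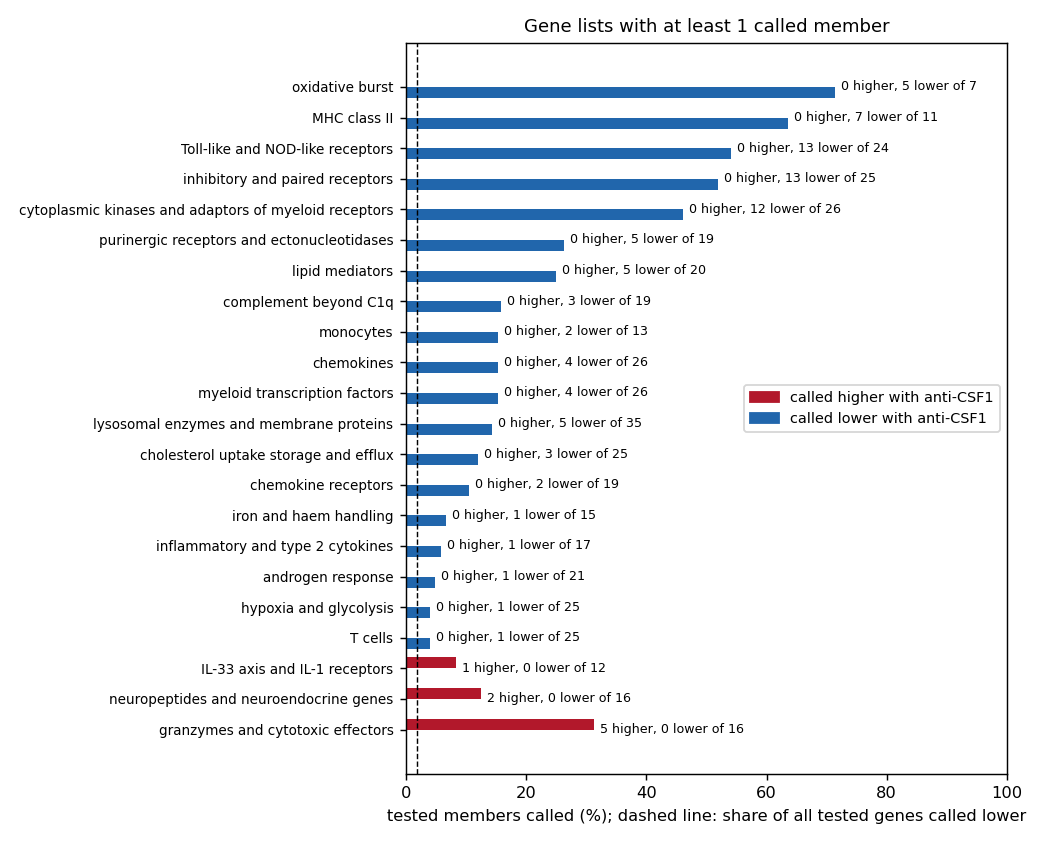
Share of the tested members of each gene list that were called higher (red) or lower (blue) with anti-CSF1, for the lists with at least 1 called member apart from the usual macrophage markers, with the counts beside each bar. The dashed line is the 1.79% of all tested genes called lower, and no line is drawn for the 0.0796% called higher. Of the list members, 5 of 7 oxidative burst genes and 7 of 11 MHC class II genes were called lower, and 5 of 16 granzymes and cytotoxic effectors higher.

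The promoters of some called genes are printed first, because a factor of macrophages, PU.1, is known to bind a purine-rich sequence. The letters GAGGAAGT, searched on both strands from 250 bases before to 50 bases after the annotated start, occurred in 24 of 241 promoters (9.96%) of 184 of the 237 lower genes. The same letters occurred in 447 of 14010 promoters (3.19%) of all tested genes, and in 3 of 31 promoters (9.68%) of called macrophage markers. None of 11 promoters of the higher genes held them. Promoters, not genes, were counted. Arhgap25 and Pik3cg each entered with separate matching promoters, and those of Pik3cg overlap and hold the same match. A match is a description of the sequence and not a binding site. The sequences come from RefSeq on GRCm38.p6. Below are the promoters of Hpgds at chr6:65144681-65144980 on the minus strand, Nlrp1b at chr11:71230684-71230983 on the minus strand and Pld4 at chr12:112760405-112760704 on the plus strand, the only 3 of the 20 lower genes with the smallest p whose promoters matched, with the matched letters in capitals.
Hpgds: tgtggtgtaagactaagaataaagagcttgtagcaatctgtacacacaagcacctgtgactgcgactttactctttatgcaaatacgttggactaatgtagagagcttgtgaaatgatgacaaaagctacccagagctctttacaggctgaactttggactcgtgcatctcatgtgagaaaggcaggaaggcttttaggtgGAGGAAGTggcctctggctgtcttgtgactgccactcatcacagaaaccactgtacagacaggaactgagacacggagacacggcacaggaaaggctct
Nlrp1b: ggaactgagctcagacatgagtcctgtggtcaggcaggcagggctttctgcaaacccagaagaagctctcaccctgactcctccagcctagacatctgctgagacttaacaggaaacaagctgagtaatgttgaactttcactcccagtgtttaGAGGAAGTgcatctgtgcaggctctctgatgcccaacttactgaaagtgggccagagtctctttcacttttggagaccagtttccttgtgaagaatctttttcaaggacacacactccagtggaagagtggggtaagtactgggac
Pld4: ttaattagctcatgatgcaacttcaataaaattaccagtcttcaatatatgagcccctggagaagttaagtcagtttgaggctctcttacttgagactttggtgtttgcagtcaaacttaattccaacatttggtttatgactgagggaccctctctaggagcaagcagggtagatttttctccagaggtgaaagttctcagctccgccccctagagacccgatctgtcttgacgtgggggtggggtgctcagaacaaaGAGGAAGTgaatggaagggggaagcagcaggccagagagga

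Antigen presentation by MHC class II came first by p. These cell surface molecules present peptides to helper T cells and are made by macrophages, dendritic cells and B cells. Of 11 tested members, 7 were called lower and none higher, with a list median of -2.15, with 7 called also without IgG replicate 3 and 7 of 10 in the Lupron libraries. H2-DMb1 encodes a chain of the chaperone that loads peptides. It had 9.39, 4.17 and 4.83 CPM in anti-CSF1 tumours and 4.85, 5.55 and 5.41 CPM in Lupron/anti-CSF1 tumours, against 26.9, 32.8 and 12.8 CPM in IgG tumours and 50.3, 45.4 and 36.4 CPM in Lupron tumours. The 6 tumours with antibody had less than any of the 6 without, and IgG replicate 3 was the lowest of those without. The log2 difference was -2.52 ± 0.27 (adjusted p = 0.00530). Its partner chain H2-DMa differed by -1.89 ± 0.25 (adjusted p = 0.00798), again with no overlap. The genes of the presenting molecules themselves, H2-Ab1 (-2.22 ± 0.32) and H2-Aa (-2.15 ± 0.32), were called as well, but in both IgG replicate 3 fell inside the range of the tumours with antibody. H2-Ab1 had 40.9 to 119 CPM in the 6 with antibody, against 111 CPM in that library and 310 to 567 CPM in the other 5 without it.

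Ciita, the master regulator that switches on MHC class II genes and a member of the same list named after its values were seen, fell too. It had 7.28, 3.13 and 4.37 CPM in anti-CSF1 tumours and 6.22, 4.80 and 6.92 CPM in Lupron/anti-CSF1 tumours, against 19.1, 21.7 and 8.62 CPM in IgG tumours and 23.2, 22.7 and 20.5 CPM in Lupron tumours. No tumour with antibody reached the level of any without it, and the difference was -1.81 ± 0.27 (adjusted p = 0.00959). March1, a ubiquitin ligase that removes MHC class II from the surface, was also lower (-1.85 ± 0.25, adjusted p = 0.00798). Promoters of MHC class II genes are known for a Y box. Its letters CTGATTGG, searched on both strands and not overlapping the purine-rich motif, were in 4 of 9 promoters (44.4%) of the list, against 5.22% of promoters of all tested genes. The promoter of H2-Aa at chr17:34287774-34288073 on the minus strand shows the match in capitals.
H2-Aa: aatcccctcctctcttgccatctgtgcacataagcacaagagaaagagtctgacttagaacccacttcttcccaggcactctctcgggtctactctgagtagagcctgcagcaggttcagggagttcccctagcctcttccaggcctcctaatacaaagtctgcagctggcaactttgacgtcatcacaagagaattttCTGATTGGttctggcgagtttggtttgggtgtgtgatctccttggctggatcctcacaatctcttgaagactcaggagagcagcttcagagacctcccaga
No member of the MHC class I presentation list was called (0 of 13, median 0.16).

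Paired and inhibitory receptors are surface proteins that damp or tune the activation of myeloid and B cells. Of 25 tested, 13 were called lower and none higher (median -1.82), and 17 were lower without IgG replicate 3. Clec4a2, an inhibitory lectin receptor of myeloid cells, had 0.510, 1.14 and 0.569 CPM in anti-CSF1 tumours and 0.469, 1.55 and 0.861 CPM in Lupron/anti-CSF1 tumours, against 7.84, 11.4 and 3.38 CPM in IgG tumours and 11.4, 10.2 and 5.94 CPM in Lupron tumours. The groups did not overlap, and the difference was -3.31 ± 0.43 (adjusted p = 0.00798). Lilrb3, another inhibitory receptor, differed by -1.82 ± 0.25 and Cd300ld by -2.27 ± 0.35. Cd22, best known as an inhibitory receptor of B cells, averaged 0.879 ± 0.376 CPM with antibody, against 4.87 ± 1.59 CPM without it (SD, n = 6 each), and differed by -2.47 ± 0.36 (adjusted p = 0.00861). Of 11 B and plasma cell markers, none was called, while 9 had a negative and 2 a positive estimate (median -0.665). Clec4a1 and its neighbours of the same family are alike in sequence, as are Lilrb3 and its relatives, and the labels do not state how reads shared between copies were counted.

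Signals from such receptors pass through cytoplasmic adaptors and kinases, of which 12 of 26 were called lower, none higher (median -1.40), and 21 were lower without IgG replicate 3. Pik3ap1, an adaptor that links receptors to PI3 kinase, had 8.44, 3.98 and 5.37 CPM in anti-CSF1 tumours and 7.28, 4.21 and 6.02 CPM in Lupron/anti-CSF1 tumours, against 21.5, 39.9 and 18.7 CPM in IgG tumours and 20.02, 14.6 and 22.1 CPM in Lupron tumours. Its difference was -1.93 ± 0.27 (adjusted p = 0.00798), without overlap. Fyb, an adaptor to the actin cytoskeleton, differed by -1.98 ± 0.28 (adjusted p = 0.00798), the phosphatase gene Ptpn6 by -1.50 ± 0.24 (adjusted p = 0.0124) and the kinase gene Btk by -2.16 ± 0.35 (adjusted p = 0.0130). Dock2, a Rac activator needed for leukocyte migration, and Dock8, an activator of Cdc42, were picked after their values were seen. Dock2 differed by -1.64 ± 0.24 (adjusted p = 0.00931) and Dock8 by -1.48 ± 0.31 (adjusted p = 0.0393). They were the only Dock genes called of 11 tested. Dock8 was highest, at 189 CPM, in IgG replicate 3 and differed by -1.08 without that library.

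Sensors of microbial products made up another group. Of 24 Toll-like and NOD-like receptors and their partners, 13 were called lower and none higher (median -1.33), and without IgG replicate 3 there were 14 lower and 1 higher. Cd180 and Ly86 encode a surface receptor and its partner protein. Cd180 had 3.64, 1.09 and 3.27 CPM in anti-CSF1 tumours and 2.54, 2.29 and 3.00 CPM in Lupron/anti-CSF1 tumours, against 13.8, 33.2 and 6.91 CPM in IgG tumours and 18.2, 11.5 and 16.2 CPM in Lupron tumours. All tumours without the antibody lay above all with it, and the difference was -2.65 ± 0.41 (adjusted p = 0.0114). Ly86 differed by -2.17 ± 0.32 (adjusted p = 0.00861). Tlr7, the endosomal sensor of single-stranded RNA, differed by -2.19 ± 0.37 (adjusted p = 0.0155) and Naip2, a sensor of bacterial secretion proteins, by -0.98 ± 0.16 (adjusted p = 0.0118). Naip2 belongs to a family of closely related copies.

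Nlrp1b, an inflammasome sensor, came 4th by p among the lower genes. It had 0.748, 1.14 and 0.924 CPM in anti-CSF1 tumours and 1.02, 0.853 and 0.861 CPM in Lupron/anti-CSF1 tumours, against 5.14, 5.97 and 2.39 CPM in IgG tumours and 5.65, 9.81 and 5.87 CPM in Lupron tumours. The difference was -2.61 ± 0.32 (adjusted p = 0.00798), and the least of the tumours without antibody had more than any with it. Aoah, an enzyme that inactivates bacterial lipopolysaccharide, differed by -2.57 ± 0.35, and Pld4, an endolysosomal nuclease, by -2.36 ± 0.30 (adjusted p = 0.00798 for both).

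The oxidative burst, in which the NADPH oxidase of phagocytes makes superoxide, was called lower in 5 of 7 genes and higher in none (median -1.40), and in 7 of 7 without IgG replicate 3. None of the 5 separated the groups fully. Cybb, the membrane subunit that carries the electrons, had 40.1, 11.9 and 25.1 CPM in anti-CSF1 tumours and 28.4, 24.5 and 21.7 CPM in Lupron/anti-CSF1 tumours, against 106, 137 and 28.1 CPM in IgG tumours and 151, 82.9 and 120 CPM in Lupron tumours. IgG replicate 3 alone among the tumours without antibody lay in the range of those with it. Cybb differed by -2.03 ± 0.39 (adjusted p = 0.0260). Ncf1, a cytosolic subunit, differed by -1.47 ± 0.26 (adjusted p = 0.0170), Cyba by -1.37 ± 0.28 and Ncf4 by -1.55 ± 0.33. Hvcn1, the proton channel that balances the charge, was named after its values were seen and differed by -1.31 ± 0.28 (adjusted p = 0.0418).

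Genes that make or sense lipid mediators included the gene with the second smallest p among the lower ones. Hpgds encodes an enzyme that converts prostaglandin H2 to prostaglandin D2. It had 1.29, 1.23 and 1.21 CPM in anti-CSF1 tumours and 2.50, 2.13 and 1.76 CPM in Lupron/anti-CSF1 tumours, against 9.17, 13.4 and 3.88 CPM in IgG tumours and 17.2, 12.6 and 11.4 CPM in Lupron tumours. The groups did not overlap, and the difference was -2.75 ± 0.30 (adjusted p = 0.00530). It was -2.69 with Lupron and -2.82 without it. Tbxas1, which turns the same precursor into thromboxane, differed by -1.89 ± 0.33 (adjusted p = 0.0169). Ptgs1, a cyclooxygenase that makes this precursor, was picked after its values were seen and differed by -1.95 ± 0.40 (adjusted p = 0.0364). In Ptgs1 the tumours overlapped: Lupron/anti-CSF1 replicate 1 had 39.7 CPM and the lowest tumour without antibody 33.2 CPM, and the level reached 193 CPM in IgG replicate 3.

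On the leukotriene side, Alox5ap, which presents arachidonic acid to 5-lipoxygenase, differed by -2.17 ± 0.39, and Cysltr1, a receptor for cysteinyl leukotrienes, by -2.14 ± 0.38 (adjusted p = 0.0194 for both). Of 20 tested genes of this group, 5 were called lower and none higher (median -1.08), with 5 called also without IgG replicate 3 and 3 of 19 in the Lupron libraries.

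**Figure D2:**
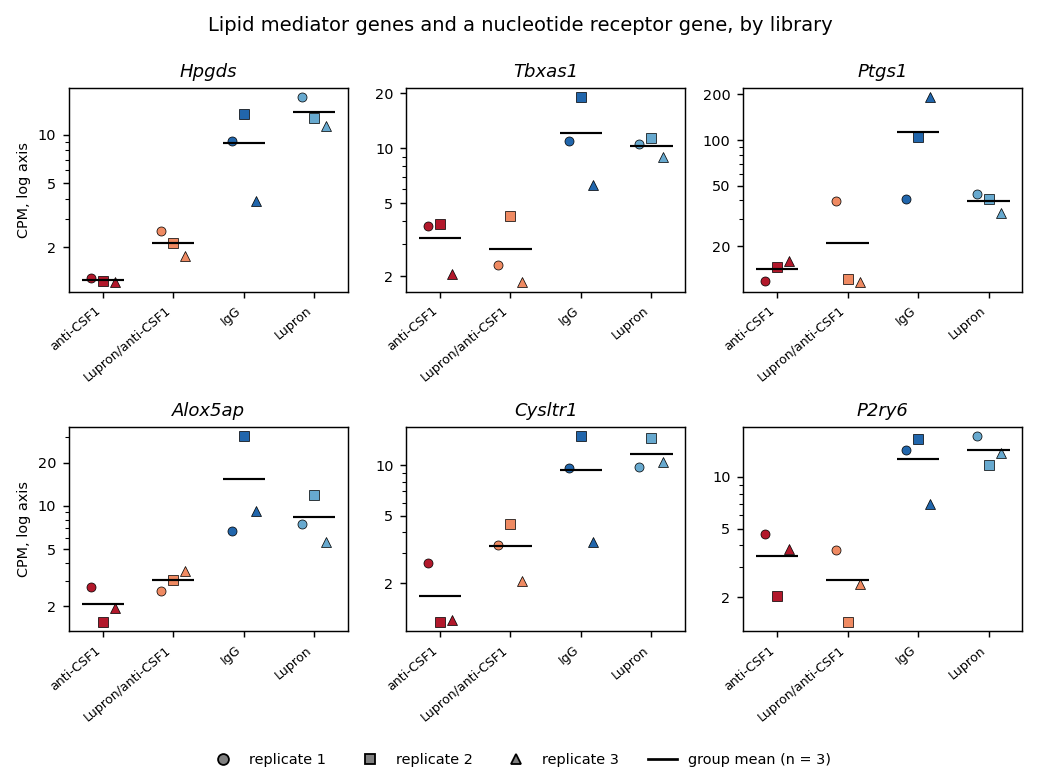
Levels in CPM on a log axis of 5 lipid mediator genes and of the nucleotide receptor gene P2ry6 in each library, by group (symbols mark replicates 1, 2 and 3, bars the mean of 3 tumours). Hpgds, Tbxas1, Alox5ap and P2ry6 lie lower in all 6 libraries with anti-CSF1 than in all 6 without, while Ptgs1 and Cysltr1 overlap in a single library on each side.

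Receptors for extracellular nucleotides followed. P2ry13, a receptor for ADP, had 0.510, 1.14 and 1.49 CPM in anti-CSF1 tumours and 0.430, 0.320 and 0.413 CPM in Lupron/anti-CSF1 tumours, against 3.42, 5.80 and 2.10 CPM in IgG tumours and 10.8, 4.53 and 5.97 CPM in Lupron tumours. The difference was -3.01 ± 0.41 (adjusted p = 0.00798), without overlap. P2ry6, a receptor for UDP, had 4.63, 2.04 and 3.80 CPM in anti-CSF1 tumours and 3.76, 1.44 and 2.38 CPM in Lupron/anti-CSF1 tumours, against 14.4, 16.7 and 6.94 CPM in IgG tumours and 17.3, 11.7 and 13.8 CPM in Lupron tumours. It differed by -2.17 ± 0.32 (adjusted p = 0.00931), and every tumour with antibody was below every one without. P2ry12, a second ADP receptor that is a marker of microglia in the brain, differed by -2.46 ± 0.48 (adjusted p = 0.0282), and Entpd1, the ectoenzyme CD39 that breaks down ATP and ADP, by -0.84 ± 0.16 (adjusted p = 0.0224). The channel gene P2rx4, named after its values were seen, differed by -0.995 ± 0.21 (adjusted p = 0.0364). In all, 5 of 19 genes of this group were called lower, none higher (median -0.60), and 7 were lower without IgG replicate 3.

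Of 19 complement genes outside the C1q chains, 3 were called lower (median -1.34). Their median was -0.10 in the tumours with Lupron and -1.99 in those without it, and IgG replicate 3 was the highest library for 10 of the 19. Without IgG replicate 3, 6 of the 19 were called lower, and in the Lupron libraries fitted alone 5 of 18 were. Cfp, properdin, which stabilises the alternative pathway convertase, differed by -1.64 ± 0.24 (adjusted p = 0.00861) with no overlap. The anaphylatoxin receptor genes C5ar1 (-2.48 ± 0.44, adjusted p = 0.0194) and C3ar1 (-2.25 ± 0.47, adjusted p = 0.0393) were lower as well. Of 26 chemokines, 4 were called lower (median -0.68). Ccl8, a ligand for monocyte and eosinophil chemokine receptors, had 4.18, 7.30 and 3.95 CPM in anti-CSF1 tumours and 4.89, 4.16 and 2.41 CPM in Lupron/anti-CSF1 tumours, against 10.3, 48.9 and 46.2 CPM in IgG tumours and 16.9, 52.7 and 24.8 CPM in Lupron tumours. The lowest tumour without antibody, IgG replicate 1, still lay above the highest with it. Ccl8 differed by -2.91 ± 0.43 (adjusted p = 0.00931), Ccl12 by -3.10 ± 0.52, Cxcl16 by -1.48 ± 0.31 and Ccl6 by -1.78 ± 0.37. Of 19 chemokine receptors, 2 were called lower (median -0.83). Ccr1, a receptor of monocytes and neutrophils, differed by -1.94 ± 0.42 (adjusted p = 0.0453), and IgG replicate 3 was the lowest of all 12 libraries, at 5.23 CPM.

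Lysosomal genes were split. Of 35, 5 were called lower, while 18 estimates were positive and 17 negative and the median was 0.0049. Acp5, the tartrate-resistant acid phosphatase of osteoclasts and macrophages, differed by -1.21 ± 0.19 (adjusted p = 0.0118). Ctsh, an aminopeptidase of the cathepsin family, differed by -1.23 ± 0.20 (adjusted p = 0.0130), Gm2a, the activator that helps to degrade a ganglioside and a gene named after its values were seen, by -1.16 ± 0.19 (adjusted p = 0.0136), and Lgmn, an asparaginyl protease, by -1.19 ± 0.26 (adjusted p = 0.0419).

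In cholesterol handling, 3 of 25 genes of uptake, storage and efflux were called lower, none higher (median -0.38). Nr1h3, the sterol-sensing nuclear receptor LXR alpha, differed by -1.50 ± 0.25 (adjusted p = 0.0155). Its target Abca1, which exports cholesterol from cells, had 48.8, 42.8 and 46.3 CPM in anti-CSF1 tumours and 44.9, 29.8 and 34.6 CPM in Lupron/anti-CSF1 tumours, against 80.8, 107 and 181 CPM in IgG tumours and 53.0, 66.2 and 62.1 CPM in Lupron tumours. Each tumour without antibody lay above the 6 with it, IgG replicate 3 the highest, and the difference was -1.08 ± 0.20 (adjusted p = 0.0203). Cyp27a1, which makes the LXR ligand 27-hydroxycholesterol, differed by -2.17 ± 0.40 (adjusted p = 0.0223). In the 6 Lupron libraries alone, 0 of 25 genes of this list were called, with adjusted p of 0.0507 for Nr1h3, 0.220 for Abca1 and 0.128 for Cyp27a1. Of 22 cholesterol synthesis genes none was called (median 0.22).

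Of 26 transcription factors of myeloid cells outside the macrophage list, 4 were called lower. Irf5, which drives inflammatory cytokine genes, differed by -1.51 ± 0.26 (adjusted p = 0.0152), Tfec, a relative of the lysosomal regulators, by -1.85 ± 0.39 (adjusted p = 0.0400), Maf by -0.83 ± 0.18 (adjusted p = 0.0452) and Irf8 by -0.71 ± 0.16 (adjusted p = 0.0454). F13a1, the A subunit of coagulation factor XIII and a marker of monocytes, differed by -1.80 ± 0.35 (adjusted p = 0.0268). It was 1 of 2 called among 13 monocyte markers, of which 8 had a negative and 5 a positive estimate (median -0.49, and 0.08 in the tumours with Lupron). Their summed level was 9449 to 20514 CPM in tumours with antibody, against 1773 to 16226 CPM in tumours without it. Il16, a chemoattractant for CD4-bearing cells, differed by -1.40 ± 0.23 (adjusted p = 0.013). Pfkfb4, a regulator of glycolysis, was the 1 called gene of 25 of hypoxia and glycolysis (-1.39 ± 0.27, adjusted p = 0.0296), while 22 of the 25 had a positive estimate (median 0.59). Slc11a1, the phagosomal metal transporter NRAMP1, was the 1 called gene of 15 of iron and haem handling (-2.36 ± 0.41, adjusted p = 0.0170).

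Single genes with other roles were among the 20 lower genes with the smallest p. Adap2, a GTPase-activating protein for Arf6, had 4.05, 3.22 and 2.95 CPM in anti-CSF1 tumours and 3.21, 2.99 and 2.93 CPM in Lupron/anti-CSF1 tumours, against 11.1, 15.7 and 6.87 CPM in IgG tumours and 14.2, 15.5 and 13.3 CPM in Lupron tumours. It differed by -1.98 ± 0.22 (adjusted p = 0.00537), with a gap between the groups. In Rasgef1b, an exchange factor for Rap GTPases, IgG replicate 1 and not replicate 3 was the lowest tumour without antibody, at 7.69 CPM where the other 5 had 12.7 to 14.1 CPM. It differed by -1.55 ± 0.20. Cadm1, a cell adhesion molecule, differed by -2.29 ± 0.31, and IgG replicate 3 was its highest library, at 82.2 CPM. Slc9a9, an endosomal sodium-proton exchanger, differed by -1.44 ± 0.20, Fgl2, a fibrinogen-like protein, by -1.75 ± 0.24, and Rtn1, a reticulon of the endoplasmic reticulum, by -2.55 ± 0.34. Tifab, a relative of the adaptor TIFA, differed by -2.23 ± 0.30. For these 6 genes the adjusted p was 0.00798.

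Further genes on none of the lists, named after their values were seen, were also called in all 12 fits that left out 1 library. Rassf2 and Rassf4, which carry a Ras association domain, were the 2 genes called of 10 in their family. Rassf2 differed by -1.57 ± 0.22 (adjusted p = 0.00798) and Rassf4 by -1.998 ± 0.29 (adjusted p = 0.00861). Prkcb, a protein kinase C of leukocytes, differed by -2.44 ± 0.36 (adjusted p = 0.00861), Tagap, a GTPase-activating protein of activated T cells, by -2.26 ± 0.33 (adjusted p = 0.00861), and Coro7, a coronin, by -1.05 ± 0.16 (adjusted p = 0.0114). In all 5 genes every tumour with antibody lay below every tumour without it. Of 253 solute carrier genes 7 were called lower (2.77%), beside 1.79% of all tested genes. Of 71 ribosomal protein genes none was called (median 0.29).

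Kcnj10, an inward-rectifying potassium channel known from glia and kidney, was in both the group with the smallest p and the group with the largest differences. It had 0.680, 0.237 and 0.747 CPM in anti-CSF1 tumours and 0.0391, 0.320 and 0.310 CPM in Lupron/anti-CSF1 tumours, against 5.67, 3.17 and 1.53 CPM in IgG tumours and 8.12, 6.77 and 6.18 CPM in Lupron tumours. The difference was -3.79 ± 0.53 (adjusted p = 0.00798), and the lowest tumour without antibody stood above the highest with it. Nxpe5 (-3.33 ± 0.47, adjusted p = 0.00798) also separated the groups. Gbp2b, an interferon-inducible GTPase, was listed at 0 in 3 of the 6 libraries with antibody, had at most 0.654 CPM in the others, and had 2.32 to 8.72 CPM in the 6 without. Its fitted difference of -5.07 ± 0.87 (adjusted p = 0.0161) rests on few counts in the libraries with antibody. Gbp2b has close relatives in the genome, as does Art2b (-3.69 ± 0.82, adjusted p = 0.0478), a T cell surface ADP-ribosyltransferase.

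Cd4 was the single T cell list member called of 25. This coreceptor of helper T cells is also found on some macrophages and dendritic cells. Cd4 had 3.33, 2.04 and 2.81 CPM in anti-CSF1 tumours and 2.39, 1.81 and 2.34 CPM in Lupron/anti-CSF1 tumours, against 8.18, 11.1 and 3.67 CPM in IgG tumours and 14.2, 13.8 and 12.1 CPM in Lupron tumours. All tumours with antibody were below all without, and the difference was -2.05 ± 0.28 (adjusted p = 0.00798). Cd3e, a chain of the T cell receptor complex, differed by -0.91 ± 0.36 (adjusted p = 0.215). Of the 25 T cell list members, 21 had a negative and 4 a positive estimate (median -0.75). The list median was -0.93 in the tumours with Lupron and -0.15 in those without it. The summed level of the T cell list was 110 to 146 CPM with antibody, against 126 to 208 CPM in 5 libraries without it and 40.9 CPM in IgG replicate 3. Its part in the Cd4 difference was not tested.

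**Figure D3:**
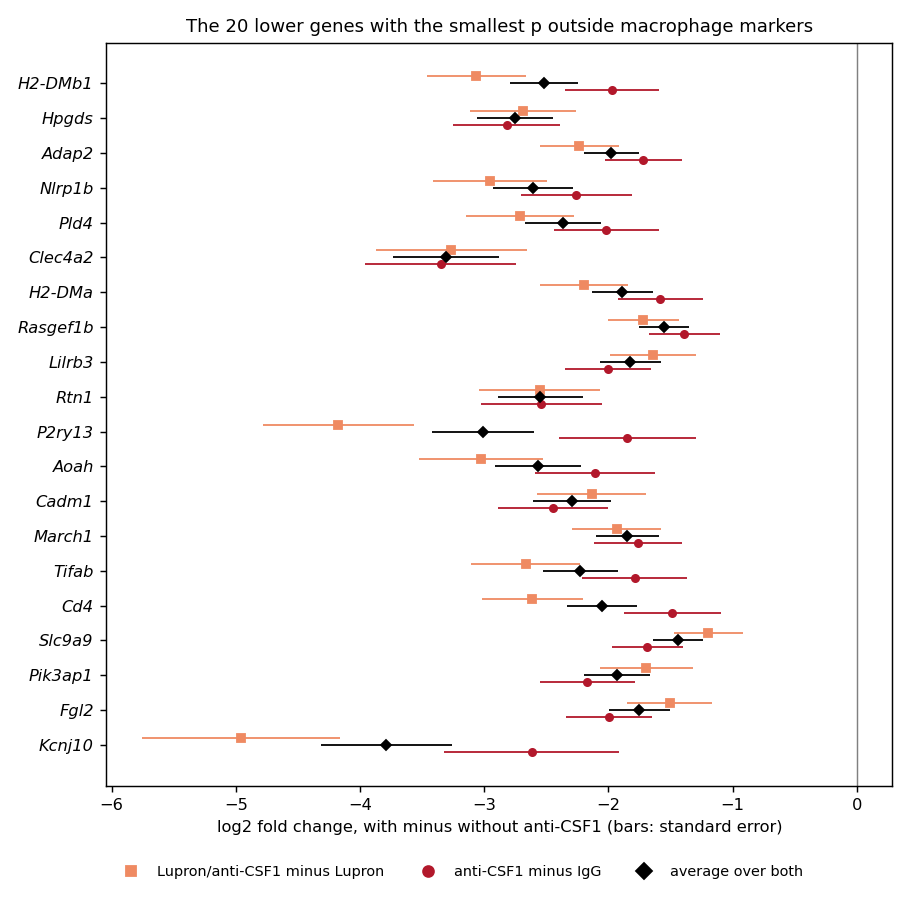
Log2 fold change, with minus without anti-CSF1, of the 20 genes called lower with the smallest p outside the usual macrophage markers, ordered by p. Orange squares show Lupron/anti-CSF1 minus Lupron, red circles anti-CSF1 minus IgG and black diamonds the average over both, with bars for the standard error; every estimate lies below 0, from -1.19 for Slc9a9 to -4.96 for Kcnj10, both with Lupron.

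The 12 higher genes were led by granzymes. Granzymes are serine proteases that NK cells and cytotoxic T cells release with perforin into target cells. Of 16 granzymes and cytotoxic effectors tested, 5 were called higher and none lower (median 0.52): Gzmc, Gzmd, Gzme, Gzmf and Gzmg, which in the mouse lie side by side on chromosome 14. Gene annotation of GRCm38 (GENCODE M21) places Gzme at chr14:56117626-56120625, Gzmd at chr14:56129556-56132608, Gzmg at chr14:56156582-56159579, Gzmf at chr14:56205263-56211417 and Gzmc at chr14:56231441-56234656, all on the minus strand.

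Gzmd had 6.60, 179 and 65.3 CPM in anti-CSF1 tumours and 193, 49.3 and 17.6 CPM in Lupron/anti-CSF1 tumours, against 2.47, 0.710 and 0 CPM in IgG tumours and 0.473, 0.975 and 0.417 CPM in Lupron tumours. All 6 tumours with the antibody were above all 6 without, although they differed widely among themselves, with anti-CSF1 replicate 1 the lowest. The fitted difference was 6.73 ± 1.10 (adjusted p = 0.0132). Gzmg had 1.73, 110 and 34.5 CPM in anti-CSF1 tumours and 107, 16.7 and 3.72 CPM in Lupron/anti-CSF1 tumours, against 0.533, 0.125 and 0.0712 CPM in IgG tumours and 0.203, 0 and 0 CPM in Lupron tumours. The groups did not overlap, and the difference was 8.32 ± 1.34 (adjusted p = 0.0130). Gzmc had 72.3, 197 and 189 CPM in anti-CSF1 tumours and 315, 150 and 127 CPM in Lupron/anti-CSF1 tumours, against 32.0, 8.89 and 0.570 CPM in IgG tumours and 15.3, 23.7 and 20.01 CPM in Lupron tumours. Every tumour with antibody was above the 6 without, and Gzmc differed by 3.40 ± 0.70 (adjusted p = 0.0364). Gzmf (6.84 ± 1.33, adjusted p = 0.0283) did not overlap and Gzme (6.19 ± 1.24, adjusted p = 0.0322) did, since Lupron replicate 2 had 1.72 CPM and anti-CSF1 replicate 1 had 1.19 CPM. The size of these differences rests on few reads without antibody. Summed over the IgG and the Lupron libraries, Gzmf had 64 and 18 reads, Gzme 28 and 32, Gzmg 19 and 6 and Gzmd 82 and 43. Gzmf was at 0 in 3 libraries without antibody.

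Of the 12 fits that left out 1 library, Gzmg was called in 11 (not without Lupron replicate 2), Gzmd in 10 (not without Lupron replicates 2 or 3), Gzmc and Gzme in 3 and Gzmf in 2. Without IgG replicate 3, Gzmf and Gzme missed the threshold, with adjusted p of 0.0533 and 0.0824, and the other 3 stayed under it. That fit called 4 of the 16 list members higher, so a member outside these 5 was called there. In the Lupron libraries alone, Gzmc (adjusted p = 0.00375) and Gzmd (adjusted p = 0.0370) were called. Gzmb, the best known granzyme of killer cells, was not called over all 12 libraries and was named after its values were seen. It had 20.4 to 60.3 CPM in the 6 tumours with antibody, against 0.854 to 16.8 CPM in the 6 without, and differed by 1.75 ± 0.51 (adjusted p = 0.123). The pore-forming gene Prf1 differed by 1.82 ± 0.56 (adjusted p = 0.136). Of 18 NK cell markers none was called over all libraries (median 0.32), and the receptor gene Ncr1 differed by 1.35 ± 0.38 (adjusted p = 0.108) with all 6 above all 6. Without IgG replicate 3, 1 NK marker was called higher and 1 lower. The summed level of NK markers was 194 to 266 CPM with antibody, against 152 to 232 CPM without it. The part of these cells in the granzyme result was not tested.

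The 5 granzymes share stretches of sequence to differing degrees, so some of their reads may have been divided between them. The share of a transcript's stretches of 50 bases that any other granzyme also holds was 4.14% for Gzmc and 7.36% for Gzmf. It was 19.8% for Gzmg, 20.6% for Gzme and 21.9% for Gzmd. The likeness extends upstream of the genes. The promoters of Gzmd at chr14:56132544-56132843 and of Gzme at chr14:56120576-56120875, both on the minus strand, were 93.7% identical, and capitals mark the bases without a matching partner in the alignment, 19 in each.
Gzmd: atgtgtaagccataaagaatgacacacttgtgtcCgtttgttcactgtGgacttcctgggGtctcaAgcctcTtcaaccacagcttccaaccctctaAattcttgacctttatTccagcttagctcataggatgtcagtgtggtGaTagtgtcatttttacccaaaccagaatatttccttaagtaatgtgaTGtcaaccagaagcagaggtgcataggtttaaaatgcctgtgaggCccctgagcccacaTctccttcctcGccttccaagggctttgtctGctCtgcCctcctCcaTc
Gzme: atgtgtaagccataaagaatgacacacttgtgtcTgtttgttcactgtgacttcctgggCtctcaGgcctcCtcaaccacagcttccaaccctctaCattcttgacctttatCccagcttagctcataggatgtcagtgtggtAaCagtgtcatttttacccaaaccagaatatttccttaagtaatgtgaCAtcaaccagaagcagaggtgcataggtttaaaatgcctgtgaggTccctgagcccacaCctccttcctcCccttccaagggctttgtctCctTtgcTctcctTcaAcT

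**Figure D4:**
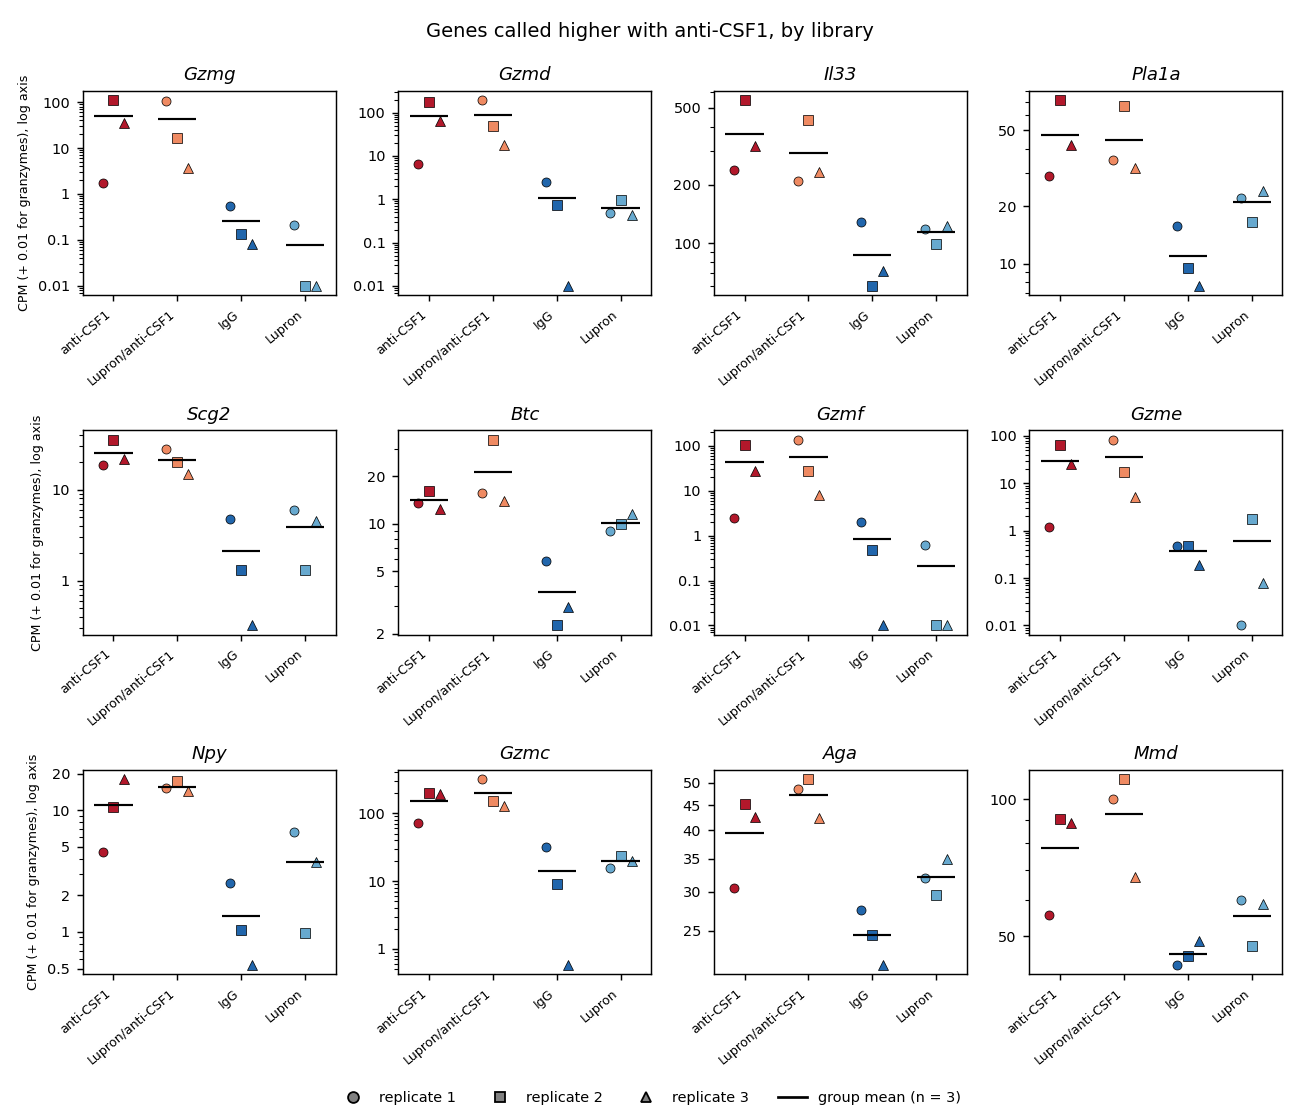
Levels in CPM on a log axis of the 12 genes called higher with anti-CSF1 in each library, by group (symbols mark replicates 1, 2 and 3, bars the mean of 3 tumours; 0.01 CPM was added for the granzymes so that zeros can be drawn). Aga, Mmd, Npy and Gzme overlap between the libraries with and without the antibody, and the other 8 do not.

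Il33, an alarmin cytokine stored in the nuclei of stromal and epithelial cells, was the 1 higher gene that was called in every fit that left out 1 library. It had 240, 547 and 317 CPM in anti-CSF1 tumours and 209, 434 and 234 CPM in Lupron/anti-CSF1 tumours, against 129, 60.1 and 71.9 CPM in IgG tumours and 119, 99.5 and 123 CPM in Lupron tumours. The lowest tumour with antibody stood well above the highest without it. Il33 differed by 1.72 ± 0.28 (adjusted p = 0.0132), by 1.66 without IgG replicate 3 and by 1.36 in the Lupron libraries, where the adjusted p was 0.0837. Its receptor gene Il1rl1 was not called (-2.52 ± 1.07, adjusted p = 0.236), with 614 CPM in IgG replicate 2 and 2.56 to 7.44 CPM in the other 11 libraries, and without IgG replicate 2 its estimate was 0.59. Il33 was the only called gene of 12 in its list.

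Pla1a, a phospholipase that releases lysophosphatidylserine, had 28.6, 71.8 and 41.8 CPM in anti-CSF1 tumours and 35.1, 67.1 and 31.6 CPM in Lupron/anti-CSF1 tumours, against 15.8, 9.48 and 7.65 CPM in IgG tumours and 22.1, 16.6 and 24.2 CPM in Lupron tumours. Its groups did not overlap and it differed by 1.60 ± 0.29 (adjusted p = 0.0202). Btc, betacellulin, a ligand of the epidermal growth factor receptor, had 13.5, 16.3 and 12.4 CPM in anti-CSF1 tumours and 15.7, 34.2 and 14.0 CPM in Lupron/anti-CSF1 tumours, against 5.78, 2.25 and 2.95 CPM in IgG tumours and 8.93, 9.98 and 11.6 CPM in Lupron tumours. The gap between the groups was narrow, 12.4 CPM above 11.6 CPM, and the difference was 1.50 ± 0.29 (adjusted p = 0.0266). Betacellulin was not on the list of growth factors, of which 0 of 33 were called (median 0.17). Tgfb2 came closest, at 0.94 ± 0.23 (adjusted p = 0.0689), with all 6 tumours with antibody above all 6 without.

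Neuropeptide genes gave 2 higher calls of 16. Scg2, a granin of secretory granules, had 18.4, 35.2 and 21.9 CPM in anti-CSF1 tumours and 27.9, 20.2 and 14.8 CPM in Lupron/anti-CSF1 tumours, against 4.72, 1.29 and 0.320 CPM in IgG tumours and 5.95, 1.32 and 4.48 CPM in Lupron tumours. The groups lay apart, with a difference of 2.99 ± 0.57 (adjusted p = 0.0253). Npy, neuropeptide Y, differed by 2.52 ± 0.52 (adjusted p = 0.0364), and anti-CSF1 replicate 1, at 4.52 CPM, lay below Lupron replicate 1, at 6.66 CPM. The last 2 higher genes changed least: Aga, a lysosomal amidase, by 0.62 ± 0.14 (adjusted p = 0.0453) and Mmd by 0.76 ± 0.17 (adjusted p = 0.0472). Leaving out 1 library at a time, Pla1a was called in 6 of 12 fits, Btc, Scg2 and Npy in 4, and Aga and Mmd in 3.

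The antibody effect was then compared between tumours with and without Lupron. No gene was called for the interaction, 0% of those tested (lowest adjusted p = 0.488), and 1021 genes, 6.77%, had an unadjusted p under 0.05. DESeq2 called 188 genes for the same term. Of the 249 called genes outside the markers, 28 had an unadjusted interaction p under 0.05. Several differed on the side without Lupron and were highest in IgG replicates 2 or 3. Anxa13, an annexin of epithelia, differed by 0.48 with Lupron and by -9.01 without it (edgeR's quasi-likelihood test of the interaction, unadjusted p = 0.000103, adjusted p = 0.488). Cbr2, a carbonyl reductase, had 642 CPM in IgG replicate 3, while IgG replicates 1 and 2 had 7.53 and 26.9 CPM. Its averaged difference was -5.00 ± 1.11, and -3.14 without IgG replicate 3. With Lupron Cbr2 differed by -0.14. Kcna2, a voltage-gated potassium channel, differed by -0.21 with Lupron. Tmprss2, the androgen-regulated protease gene whose name the fusion carries, was called over all libraries (-3.16 ± 0.69, adjusted p = 0.0452), with 239 CPM in IgG replicate 3, and not without that library (-2.49, adjusted p = 0.0515).

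Other called genes had the larger estimate with Lupron. P2ry13 differed by -4.17 with Lupron and by -1.85 without it (unadjusted p = 0.0118). Kcnj10 differed by -4.96 with Lupron and by -2.62 without it (unadjusted p = 0.0363). Acp5 differed by -1.79 with Lupron and by -0.63 without it (unadjusted p = 0.0105). These 3 are the potassium channel, nucleotide receptor and phosphatase genes described above. Cdh6, a cadherin, differed by -5.38 with Lupron and by -1.53 without it (unadjusted p = 0.0168), and Irf8 by -1.07 with Lupron and by -0.34 without it (unadjusted p = 0.0383). None of these passed adjustment over all genes. In the 6 Lupron libraries fitted alone, 204 genes were called, 173 of them outside the markers, and 121 of the 237 lower genes were among them. The estimate was negative in 235 of the 236 lower genes tested there. Those libraries also entered the fit that chose the genes, so the sign is no independent test. Within the fit to all 12 libraries, anti-CSF1 against IgG called 1 gene (0.00663% of those tested), the macrophage marker Fcna, and Lupron/anti-CSF1 against Lupron called 0 genes (0%). Fitted alone, the 6 libraries without Lupron gave 0 calls with edgeR, and 1970 genes with an unadjusted p under 0.05.

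**Figure D5:**
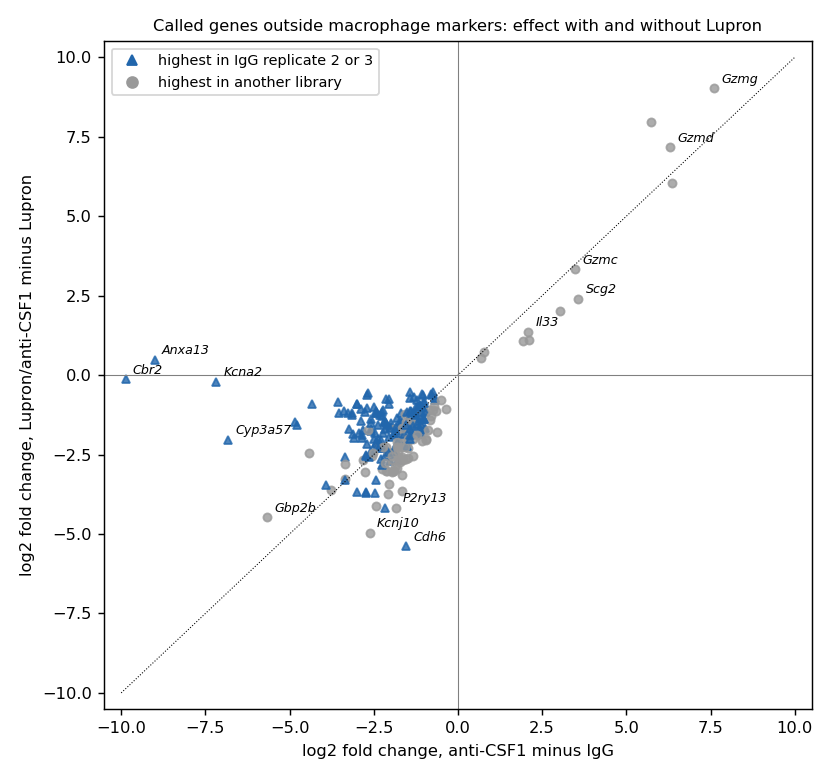
Each point is 1 of the 249 genes called outside the usual macrophage markers, with its log2 fold change for Lupron/anti-CSF1 minus Lupron on the y axis and for anti-CSF1 minus IgG on the x axis. Blue triangles are genes whose highest library was IgG replicate 2 or 3, and the dotted line marks equal effects; Cbr2, Anxa13 and Kcna2 lie near 0 with Lupron, while P2ry13, Kcnj10 and Cdh6 lie below the line.

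Many lists gave no call over all libraries. None was called among 12 neutrophil, 17 dendritic cell, 9 mast cell and basophil, 20 endothelial and 19 fibroblast and pericyte markers, nor among 18 collagens, 30 interferon-stimulated genes and 12 ETS factors. Without IgG replicate 3, 1 dendritic cell marker, 1 ETS factor and 1 luminal epithelium gene were called lower. In the Lupron libraries 1 dendritic cell marker was called lower. Dendritic cell markers had 13 negative and 4 positive estimates (median -0.38). Erg, the other gene of the fusion, differed by 0.41 ± 0.21 (adjusted p = 0.304). This is the level of the mouse gene, and whether it includes reads of the fusion was not tested. All 30 cell cycle genes had a positive estimate and none was called (median 0.38), and their median was 0.12 without IgG replicate 3. In the lists of luminal epithelium (0 called of 19, median -1.52), smooth muscle (0 of 16, median -2.11) and fat (0 of 12, median -4.35), IgG replicate 3 was the highest library for 17, 15 and 12 genes. In the tumours with Lupron the medians of luminal epithelium, smooth muscle and fat were -0.54, -0.39 and 2.53. IgG replicate 3 was the highest library for 63 of the 237 lower genes and for 4631 of all 15082 tested genes (30.7%), and the part of its tissue makeup in the calls was not tested beyond the fits without it.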

How the data were processed

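RNA from 12 tumours, 3 per group, had been sequenced after amplification with a NuGen Ovation kit, and RNA integrity numbers were 8.2 to 9.8, per the labels. The authors deposited 1 table of raw read counts per gene symbol (23479 symbols). Per the submitters' processing notes, bcl2fastq 2.20.0.422, cutadapt 1.8.1 and HTSeq 0.6.1 were used, with mm10 as the build; no aligner, annotation, strand setting or batch is named there or in the labels. Total deposited counts were 20584363 to 29965355 per library.

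Genes passing edgeR's expression filter (15082) were tested with edgeR 4.0.16 in R 4.3.3 (limma 3.58.1) on the counts as deposited: TMM scaling, 4 groups in 1 quasi-likelihood fit with robust estimation, the antibody effect averaged over Lupron, an interaction term, and Benjamini-Hochberg adjustment over all tested genes at 0.05. The design was tested on simulated data. CPM values use the scaled library sizes. The main fit did not pair tumours by replicate number. No 2 libraries were alike within sampling noise (chi-square over degrees of freedom was at least 38 in 66 pairs).

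Alternatives were other scalings and filters, DESeq2 1.42.0, limma voom, an additive fit, a replicate block, an RNA integrity covariate, each library left out, and each Lupron stratum alone. The gene lists (51, with 987 symbols, 7 of them not found in the table) and the genes of interest were chosen with earlier results of these data known. Named genes were all those called higher, the 20 called lower with the smallest p, the 10 with the largest falls, up to 4 per list, and Csf1, Csf1r, Il34 and Erg; predicted genes were left out. Ciita, Dock2, Dock8, Hvcn1, Ptgs1, P2rx4, Gm2a, Gzmb, Prf1, Il1rl1, Rassf2, Rassf4, Prkcb, Tagap and Coro7 were named after their values were seen. Promoters are RefSeq's on GRCm38.p6. Some called genes of the lists are not reported here by name.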

Additional observations from a re-analysis of the deposited data

Results flagged for a closer look

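For 107 named genes, the 6 libraries with antibody and the 6 without were each searched for a library far from the others, by the gap to its nearest neighbour divided by the range of the 6 on the log2(CPM + 1) scale, and set against Dixon's 95% critical value. Of 214 groups 30 passed, where chance gives about 1 in 20, and 20 of the 30 were IgG replicate 3.

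Among the libraries with antibody, anti-CSF1 replicate 1 stood apart in 4 genes. In Adap2 it was the highest, at 4.05 CPM, beside 2.93 to 3.22 CPM in the other 5 (ratio 0.71). In Cxcl16 it was the highest, at 34.7 CPM, beside 21.9 to 25.3 CPM in the other 5 (ratio 0.688). H2-DMb1 was likewise highest there, at 9.39 CPM, beside 4.17 to 5.55 CPM in the other 5 (ratio 0.662). Aga was lowest in that library, at 30.5 CPM, beside 42.4 to 50.8 CPM in the other 5 (ratio 0.642). Without that library, none of the 4 changed its sign. Lupron/anti-CSF1 replicate 1 was highest for Ncr1, at 9.39 CPM, beside 3.23 to 4.51 CPM in the other 5 (ratio 0.705), and for Ptgs1, at 39.7 CPM, beside 11.5 to 15.8 CPM in the other 5 (ratio 0.75). In Btc, Lupron/anti-CSF1 replicate 2 was highest, at 34.2 CPM, beside 12.4 to 16.3 CPM in the other 5 (ratio 0.74).

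Among the libraries without antibody, IgG replicate 3 was the lowest in 17 genes, which include members of MHC class II, the oxidative burst and chemokines. The ratios were 0.684 for Ccl12, 0.758 for Ccr1, 0.798 for Ciita, 0.76 for Cxcl16, 0.64 for Cybb, 0.683 for Cysltr1, 0.697 for Fyb, 0.759 for Gzmb, 0.629 for H2-Ab1, 0.666 for Hvcn1, 0.667 for Il34, 0.712 for Lgmn, 0.726 for Ly86, 0.652 for Ncf1, 0.721 for Ncf4, 0.645 for Pld4 and 0.798 for Tifab. The library was the highest in 3 genes, with ratios of 0.631 for Cadm1, 0.65 for Dock8 and 0.765 for Prkcb. In the other genes, Rasgef1b was lowest in IgG replicate 1, at 7.69 CPM, beside 12.7 to 14.1 CPM in the other 5 (ratio 0.835). IgG replicate 2 was the highest for Rassf4, at 33.4 CPM, beside 16.5 to 18.3 CPM in the other 5 (ratio 0.85), and for Il1rl1, at 614 CPM, beside 2.56 to 5.45 CPM in the other 5 (ratio 0.885).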

How the results depend on the processing

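All 249 genes called outside the markers kept their sign in each of the 12 fits without 1 library, and 45 were called in all 12. The libraries of these fits had also entered the fit that chose the genes. Those fits called 65 to 1577 genes in all, 50 to 1532 outside the markers and 0 to 5 for the interaction. The lowest counts came without anti-CSF1 replicate 3, and the highest, with 1013 lower and 519 higher outside the markers, without IgG replicate 1; the cause was not tested. RLE or upper-quartile factors, 2 other filters on low counts, an additive fit, the RNA integrity covariate, non-robust estimation, the Lupron libraries alone and, chosen after seeing the data, leaving out IgG replicates 2 and 3 together gave 204 to 313 genes in all and 173 to 280 outside the markers. DESeq2 called 1425 genes, 1380 outside the markers (1187 lower and 193 higher), and 188 for the interaction. Voom with quality weights called 1989 genes, 1942 outside (1124 lower and 818 higher). The libraries without Lupron alone gave 0 calls in all and 0 outside the markers, with 1970 genes at an unadjusted p under 0.05.

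Correlations between libraries cannot decide whether replicate numbers mark a shared batch, since the labels name none. Over 18 same-numbered pairs they ran from -0.3 to 0.51, with 8 above 0.1. Of 12 libraries, 6 correlated best with their own number. With the replicate block 151 genes were called, 129 outside the markers, and 125 of the 249 stayed called (120 of 237 lower and 5 of 12 higher).

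Il34, not called in any fit, ran from -0.32 to 0.28 over the fits without 1 library and turned positive with the replicate block (0.029), without anti-CSF1 replicate 3 (0.02), Lupron/anti-CSF1 replicate 3 (0.11), IgG replicate 1 (0.07), IgG replicate 2 (0.28) or Lupron replicate 1 (0.01), and in the libraries without Lupron (0.26). Il1rl1 ran from -2.81 to 0.59 over those fits and turned positive without IgG replicate 2 (0.59), without IgG replicates 2 and 3 (0.54) and in the Lupron libraries (0.35), as Anxa13 did in the Lupron libraries (0.48). Genes under about 1 CPM, such as Gbp2b and Cdh6 in tumours with antibody and Gzmg in tumours without it, rest on few counts.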

Other observations

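Summed neutrophil markers were 625 to 1023 CPM in the 6 libraries with antibody, against 97.4 to 642 CPM in the 6 without it, while 0 of 12 single genes were called. Of these 12, 7 had a positive and 5 a negative estimate (median 0.06, and -0.14 without IgG replicate 3). Of 25 matrix proteases and inhibitors, 21 had a positive estimate (median 0.78), 0 were called over all libraries and 1 was called higher without IgG replicate 3 (median 0.54). Endothelial markers were positive in 17 of 20 (median 0.40) and collagens in 16 of 18 (median 0.46), again with 0 calls, and their medians without IgG replicate 3 were 0.21 and 0.29. Prostate secretion genes summed to 388 to 2811 CPM with antibody, against 299 to 19547 CPM without it, and 0 of the 11 genes were called.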
